A study of Mus musculus with 8 samples.

Results

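Annexins are cytosolic proteins that bind membranes rich in acidic phospholipids when calcium rises. Each carries a core of repeated annexin domains and an N-terminal region that differs between members and holds the sites for partner proteins. They are known for work at membranes: the resealing of torn plasma membrane, vesicle traffic, the link between membrane and actin, and, for Anxa1, the resolution of inflammation through formyl peptide receptors. In injured epithelium, calcium entry and exposed phosphatidylserine are the conditions under which annexins are recruited to membranes.

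The family was chosen by gene name: the rows of the deposited count table whose symbol is Anxa followed by a digit and that hold 1 value for each of the 8 libraries. This gave 9 genes among 35880 rows: Anxa1, Anxa2, Anxa4, Anxa5, Anxa6, Anxa8, Anxa10, Anxa11 and Anxa13. The table has 13 rows with such a symbol. The other 4, the coding genes Anxa3, Anxa7 and Anxa9 and the antisense RNA Anxa11os, hold 10 values each, with no way to tell which belongs to which library, and were not analysed here. The family, and Anxa1 as the member against which the others are set, were taken up with results of the comparison of cisplatin and control kidneys already known. The members' differences between these groups are therefore given as a description. Where the fit over all genes called a member, the call is quoted as a label only: it is no test of the family, and no p-value is given for a member.

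Kidneys of wild-type C57/BL6J mice were compared 72 h after injection. The study's methods describe the mice as male. The control group (libraries 1, 2, 3 and 5) had received saline, and the cisplatin group (libraries 1, 3, 4 and 6) a single agent, cisplatin, at 23 mg/kg into the peritoneum. Cisplatin is a platinum drug that injures the proximal tubule, and the study used it as a model of acute kidney injury. Each library was RNA of kidney tissue as a whole, with 4 libraries per group. Total counts in the rows used ran from 13539665 to 16201443 in the controls and from 10953338 to 16701599 after cisplatin.

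Some libraries stood apart from their labels or from the others. Cisplatin 1 and cisplatin 3 had 2 and 0 counts of the Y-linked gene Kdm5d, whereas the other 6 libraries had 274 to 576. Eif2s3y, also Y-linked, had 3 and 0 counts in these libraries and 541 to 1333 in the others. The first principal component of all genes tested, with 73.6% of the variance, separated the treatments. The second, with 15.96%, separated control 5, cisplatin 4 and cisplatin 6 (called here the second set) from control 1, 2 and 3 and cisplatin 1 and 3 (the first set). Each member tested is therefore also given without cisplatin 1 and 3 and within each set. Cisplatin 1 and 3 are the only cisplatin libraries of the first set. Without them, cisplatin libraries of the second set meet controls mostly of the first, so treatment and set are mixed in that estimate. The second set holds a single control, so no spread can be had for it.

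The members' places in the genome (GRCm38) were those of GENCODE M21 for all 9. Anxa1 (ENSMUSG00000024659) lies at chr19:20373428-20390944 on the minus strand and Anxa2 (ENSMUSG00000032231) at chr9:69453620-69491795 on the plus strand. Anxa4 lies at chr6:86736840-86793584, Anxa5 at chr3:36448923-36475894, Anxa6 at chr11:54979108-55033445, Anxa10 at chr8:62057042-62123150 and Anxa13 at chr15:58341471-58389244, all on the minus strand. Anxa8 (chr14:34085981-34100571) and Anxa11 (chr14:25842156-25886804) lie on the plus strand of the same chromosome. Their longest coding sequences had 957 to 1038 nucleotides in 12 coding exons for Anxa1, Anxa2, Anxa4, Anxa5, Anxa8 and Anxa10. Anxa6, which carries a doubled core, had 2019 nucleotides in 25 coding exons, and Anxa11, which has a long N-terminal region, had 1509 in 14. Anxa13 has no coding sequence in GENCODE M21, where it is a processed transcript. In an alignment of the 8 coding sequences, the member nearest to Anxa1 was Anxa2, with 57.5% of 1010 aligned nucleotides identical. The others shared 49.3% (Anxa10) to 54.4% (Anxa11) with Anxa1. The closest pair was Anxa4 and Anxa5, at 61.1%. No pair was near identical.

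Promoter sequence was at hand from RefSeq for 7 of the 9 members, all but Anxa6 and Anxa13. The 250 bases before the transcription start of Anxa1 and Anxa2, whose levels had the most alike pattern among the members tested, are shown with those of Anxa10, which was hardly counted in any kidney (GRCm38.p6, 5′ to 3′ in the direction of the gene). Capitals mark matches, on either strand, to any of the motifs searched, which are spelled out after the sequences; no matches to different motifs overlapped here.
Anxa1, chr19:20390672-20390921, minus strand: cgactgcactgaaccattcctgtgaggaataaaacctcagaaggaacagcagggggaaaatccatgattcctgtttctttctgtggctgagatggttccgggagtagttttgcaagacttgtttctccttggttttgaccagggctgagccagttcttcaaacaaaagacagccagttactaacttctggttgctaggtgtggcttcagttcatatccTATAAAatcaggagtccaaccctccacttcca
Anxa2, chr9:69453433-69453682, plus strand: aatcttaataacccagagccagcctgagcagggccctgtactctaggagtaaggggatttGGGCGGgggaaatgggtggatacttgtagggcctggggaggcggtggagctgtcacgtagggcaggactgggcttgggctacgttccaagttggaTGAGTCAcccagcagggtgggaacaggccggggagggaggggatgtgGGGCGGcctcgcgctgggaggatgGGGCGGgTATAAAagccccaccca
Anxa10, chr8:62123194-62123443, minus strand: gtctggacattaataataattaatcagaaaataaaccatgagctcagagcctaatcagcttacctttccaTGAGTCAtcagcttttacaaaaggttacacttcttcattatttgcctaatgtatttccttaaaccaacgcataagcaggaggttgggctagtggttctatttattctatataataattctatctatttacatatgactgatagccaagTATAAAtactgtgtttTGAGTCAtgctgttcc
All 3 sequences held the letters of the TATA box, TATAAA, beginning 32 bases before the start in Anxa1 and Anxa10 and 17 in Anxa2. Among 32851 mouse promoters of this length, 12.4% held them. The AP-1 motif, searched as TGANTCA, stood in Anxa2 (95 bases before the start) and at 2 places in Anxa10, but not in Anxa1, and were present in 6.75% of all promoters. Anxa2 also had 3 GC boxes, spelled GGGCGG, as did Anxa11, a motif found in 32.7% of all promoters. A kappa B match was found in 1 of the 2 Anxa4 promoters (5.00% of all), where the kappa B consensus was searched by its usual degenerate form. The cAMP response element, TGACGTCA, is in 1.55% of all promoters and was in none of the 8 of the members. The same held for the STAT motif, TTCNNNGAA, which is in 7.02% of all. In Anxa5 and Anxa8 none of these letters was found. A match is only a run of letters in this window.

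Among the 9 members analysed, Anxa5 was the highest in the controls, and after cisplatin Anxa2 stood beside it. Levels of different genes were compared as TMM-normalized counts per library size and per kilobase of gene length (CPM per kb). Controls had 84.0 ± 4.95 CPM per kb of Anxa5 (SD, n = 4), 46.4% of the summed level of the 9 members. Anxa6 at 29.1 ± 3.44 and Anxa4 at 26.0 ± 1.27 CPM per kb came next, and their ranges overlapped. Anxa11 at 16.6 ± 4.80 and Anxa2 at 15.7 ± 4.49 overlapped as well. Anxa13 (5.68 ± 1.79) and Anxa1 (4.18 ± 0.28) overlapped in range, although Anxa13 was the higher in all 4 controls. Anxa8 had 0.38 ± 0.21 CPM per kb, and Anxa10 had no count.

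After cisplatin the order changed. Anxa2 had 186.9 ± 12.0 CPM per kb (SD, n = 4) and Anxa5 163.7 ± 41.4, and their ranges overlapped: Anxa2 was the higher in 2 of 4 libraries. Anxa4 at 56.0 ± 8.36 and Anxa6 at 48.1 ± 21.5 overlapped, as did Anxa6 and Anxa1, which had 26.4 ± 6.68 CPM per kb. Anxa1 was above Anxa11 (20.98 ± 2.18) in all 4 libraries, with overlapping ranges. Anxa8 had 2.13 ± 0.38 and Anxa13, now the lowest of the members tested, 0.43 ± 0.30 CPM per kb. The summed level of the members went from 181.7 ± 15.8 to 504.6 ± 81.0 CPM per kb. Within it the share of Anxa2 went from 8.56 ± 1.63% to 37.5 ± 3.63%, and that of Anxa1 from 2.31 ± 0.26% to 5.31 ± 1.496%. The mean shares of Anxa4, Anxa5, Anxa6, Anxa11 and Anxa13 were smaller than in the controls, at 11.1%, 32.1%, 9.20%, 4.28% and 0.085%. In tissue RNA of this kind, fewer cells of a type and less RNA per cell cannot be told apart.

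**Figure D1:**
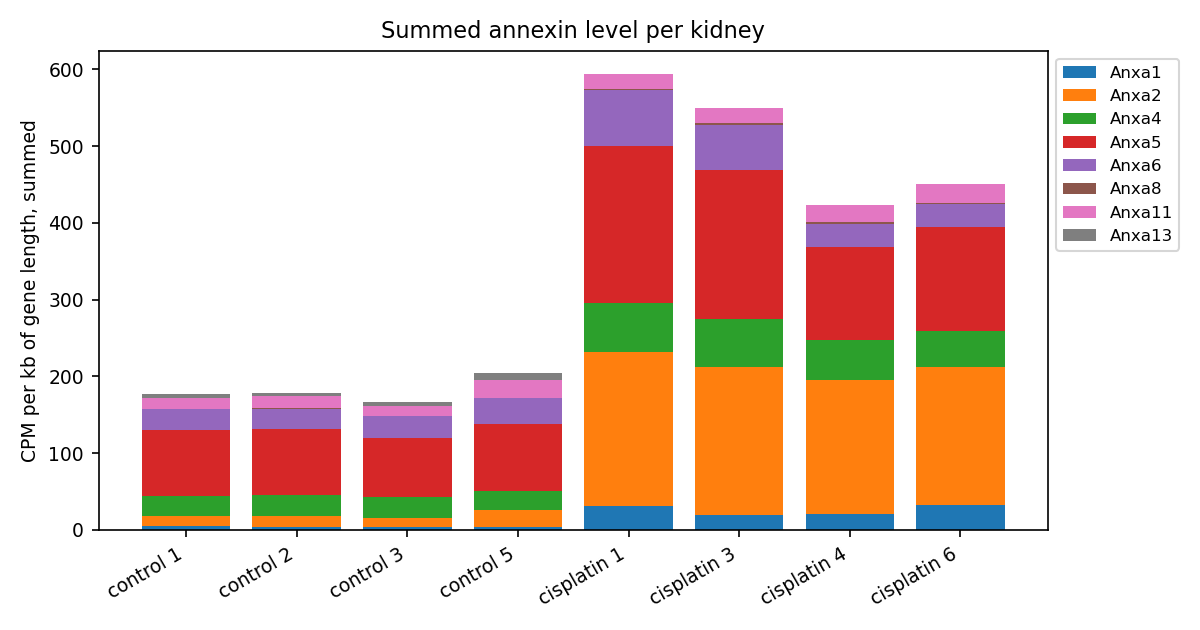
Summed level of the annexins in each of the 8 kidneys, in TMM-normalized CPM per kb of gene length, divided by member; Anxa10, with 1 count in all, is not drawn. The 4 cisplatin kidneys reach 423.0 to 594.5 CPM per kb and the controls 166.8 to 204.0, and the segment of Anxa2 goes from 8.56% to 37.5% of the sum.

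Of the 9 members, 8 passed the expression filter. By edgeR's quasi-likelihood fit over all 9141 genes tested, with calls at an adjusted p under 0.05 and a log2 fold change of at least 1 in size, 4 were called up-regulated (Anxa1, Anxa2, Anxa4 and Anxa8) and 1 down-regulated (Anxa13), and 3 were not called (Anxa5, Anxa6 and Anxa11). Of all genes tested, 19.2% were called up-regulated and 15.7% down-regulated. In 5 members every cisplatin library was above every control and in 1 every one was below, against 23.7% and 22.5% of all genes. Nothing is read from these shares, since the family was taken up with this comparison known. Anxa8 also passed the filter only through the cisplatin group and Anxa13 only through the controls, the groups in which they were high. The median log2 fold change of all genes was 0.08. Scaling by total counts alone in place of TMM moved it by 0.57, and the fold changes below are relative to a TMM scale. The members nearest to the threshold were Anxa4 just inside it (log2 fold change 1.11) and Anxa5 just outside (0.96).

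**Figure D2:**
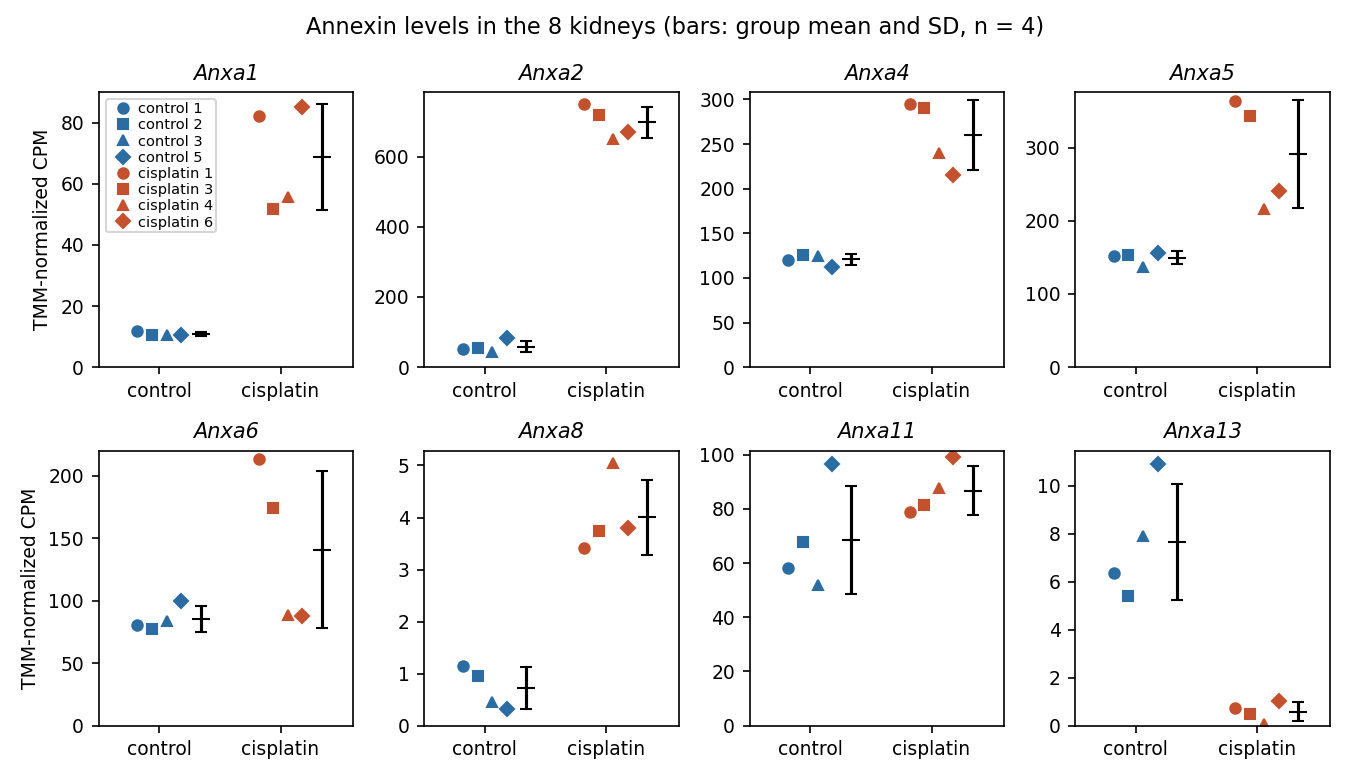
TMM-normalized CPM of the 8 annexins above the expression filter in each control (blue) and cisplatin (orange) kidney, 1 panel per gene, each from 0; black bars are the group mean and SD (n = 4). The groups are apart in every panel but those of Anxa6 and Anxa11, and for Anxa6 only cisplatin 1 and 3 lie above the controls.

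Anxa1, the member known for ending neutrophil influx and for its receptors of the formyl peptide family, was low in the controls and was up-regulated after cisplatin. The controls had 12.0, 10.4, 10.6 and 10.6 CPM in libraries 1, 2, 3 and 5. After cisplatin it had 82.4, 51.9, 55.9 and 85.3 CPM in libraries 1, 3, 4 and 6. The groups were far apart, and the higher and the lower cisplatin values were spread over both sets. The log2 fold change was 2.66 (SE 0.21), 6.32-fold. Of all genes tested, 4.98% had a larger one. Within the first set the log2 fold change was 2.55, without cisplatin 1 and 3 it was 2.70, and the log2 ratio of mean CPM in the second set was 2.73.

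Anxa2, which forms a tetramer with S100a10 and brings plasminogen and its activators together on the cell surface, had the largest positive log2 fold change among the 8 members tested. Controls 1, 2 and 3 had 52.8, 55.0 and 44.2 CPM and control 5 had 82.9. The cisplatin libraries had 748.5, 719.4, 650.2 and 670.7 CPM, a narrow range for a value far above the controls. The log2 fold change was 3.57 (SE 0.22), 11.9-fold, larger than that of Anxa1 by 0.91. Control 5 was 1.64 times the mean of the other controls, so that within the second set the log2 ratio of mean CPM was 2.99, against 3.86 in the first. Without cisplatin 1 and 3 the log2 fold change was 3.50. Exons of Anxa2 overlap those of the antisense gene Gm16144 by 98 bases, and the counting's strand setting is not given in the sources used here.

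Anxa8, a member of few cell types that is known from stratified epithelium, was near the limit of measurement in the controls. It had 13, 12, 6 and 4 counts there and 75, 68, 69 and 48 counts after cisplatin. These were 1.15, 0.96, 0.46 and 0.31 CPM in the controls and 3.41, 3.74, 5.05 and 3.81 CPM after cisplatin. The groups did not overlap, and control 5 was the lowest of all. The log2 fold change was 2.47 (SE 0.41), 0.19 below that of Anxa1 and within its SE. It was 2.01 in the first set and 2.63 without cisplatin 1 and 3, and the log2 ratio of mean CPM in the second set, with its single low control, was 3.82. A filter that asks for 10 counts in every library removes this gene.

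Anxa4 and Anxa5, both abundant in the controls, had smaller changes than Anxa1. Anxa4, a member of the apical region of epithelia, had 112.6 to 125.2 CPM in the controls and 295.0, 290.4, 239.5 and 215.8 CPM in cisplatin 1, 3, 4 and 6. Its log2 fold change was 1.11 (SE 0.15), and its exons share 75 bases with those of Gm44036 on the opposite strand. It was 1.19 in the first set, and the log2 ratio of mean CPM in the second was 1.02. Without cisplatin 1 and 3 it was 0.92, which ended the call, and so did testing whether the change exceeded 1. Anxa5, which is known for binding phosphatidylserine on dying cells and forms a lattice at membrane wounds, had 152.0, 152.8, 136.4 and 156.0 CPM in the controls. After cisplatin it had 363.6, 343.7, 216.3 and 240.0 CPM, above all controls. The log2 fold change was 0.96 (SE 0.19), past the adjusted p threshold but under the threshold of 1. For both genes cisplatin 1 and 3 were above cisplatin 4 and 6, by 1.29 times in Anxa4 and 1.55 times in Anxa5. The Anxa5 log2 fold change was 1.21 and called in the first set, and 0.62 without cisplatin 1 and 3. In the second set the log2 ratio of mean CPM was 0.55.

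Anxa6 was high in only part of the cisplatin kidneys. This member, with a doubled core, works in endosomal cholesterol traffic and in the repair cap at wounds. The controls had 80.4, 77.0, 83.7 and 99.8 CPM. Cisplatin 1 and 3 had 213.1 and 173.9 CPM, whereas cisplatin 4 and 6 had 88.1 and 88.0 CPM, inside the range of the controls. The ratio of the former pair to the latter was 2.20, the largest among the members, and the former are the libraries with almost no Y-linked counts. The log2 fold change over all libraries was 0.73 (SE 0.29) and missed the adjusted p threshold. Under upper quartile scaling (0.79) and with no filter on low counts (0.74) it passed that threshold. Single libraries moved it: without cisplatin 1 it was 0.45 and without cisplatin 3 0.58, both short of that threshold. Without cisplatin 4 it was 0.89 and without cisplatin 6 0.90, past the adjusted p threshold but under the threshold of 1. It was 1.21 and called within the first set and 0.06 without cisplatin 1 and 3. Within the second set the log2 ratio of mean CPM was -0.18. Anxa1, measured in the same libraries, had a ratio of 0.95 between these pairs.

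Anxa11, which tethers RNA granules to lysosomes and binds S100a6, overlapped between the groups. It had 58.1, 67.8, 51.9 and 96.7 CPM in the controls and 78.9, 81.3, 87.7 and 99.0 CPM after cisplatin. Control 5 lay above 3 of the 4 cisplatin libraries. The log2 fold change was 0.34 (SE 0.20), 2.32 below that of Anxa1. It was 0.38 in the first set and 0.45 without cisplatin 1 and 3, and the log2 ratio of mean CPM within the second set was -0.05. Single controls moved it by over 1.5 times: it was 0.54 without control 5, then past the adjusted p threshold but under the fold threshold, and 0.21 without control 3. Exons of Anxa11 overlap those of Anxa11os by 113 bases on the opposite strand.

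Anxa13, a member of the apical membrane of kidney and gut epithelium and the oldest branch of the family, was the only one down-regulated among the 8 tested. The controls had 72, 68, 104 and 139 counts, and the cisplatin libraries 16, 9, 1 and 13. These were 6.38, 5.42, 7.89 and 10.9 CPM in the controls against 0.73, 0.49, 0.07 and 1.03 CPM after cisplatin. All cisplatin libraries were below all controls, and cisplatin 4 was below the level of 3 counts (0.22 CPM). Its log2 fold change was -3.70 (SE 0.54), 13.0-fold lower, and 2.06% of the genes tested had a smaller one. It was -3.45 in the first set and -3.79 without cisplatin 1 and 3, and the log2 ratio of mean CPM in the second set was -4.31. The filter of 10 counts in every library removes this gene too.

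Anxa10 had 1 count, in cisplatin 1, and 0 in the other 7 libraries. A count of 0 allows up to 3 counts, which were 0.14 to 0.27 CPM in these libraries. It was not detectable beyond that level in any group.

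**Figure D3:**
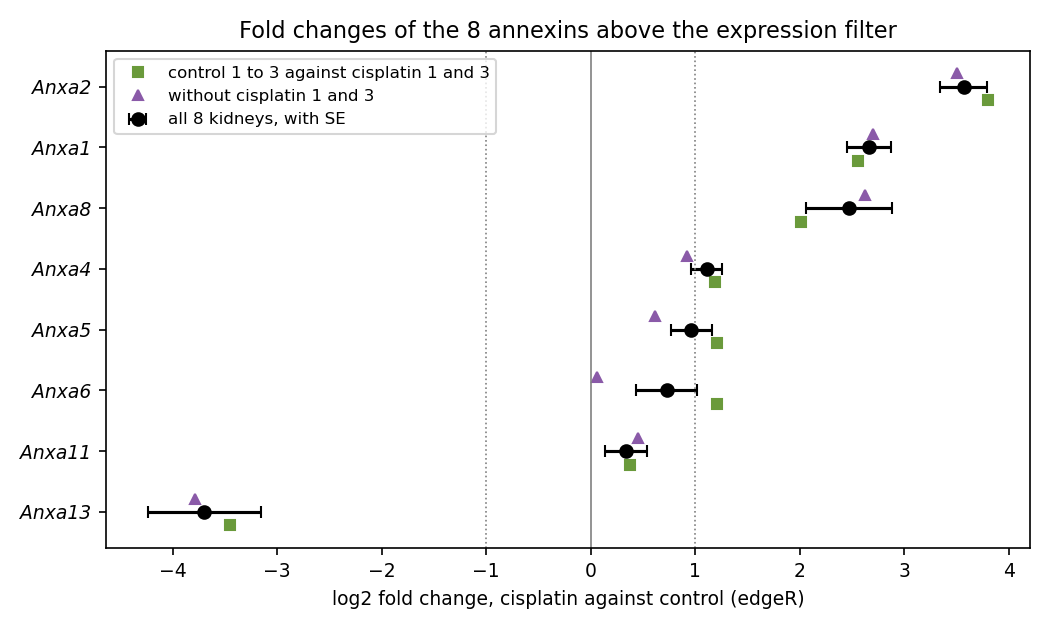
Log2 fold change, cisplatin against control, of the 8 annexins tested, over all 8 kidneys (black, with SE), within the first set (green squares) and without cisplatin 1 and 3 (purple triangles); dotted lines mark -1 and 1. The 3 estimates of Anxa1 lie between 2.55 and 2.70, whereas those of Anxa6 run from 0.06 to 1.21.

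Set against Anxa1 in the same kidney, Anxa2 gained after cisplatin, Anxa8 overlapped between the groups and the other 5 members lost. The measure was the log2 ratio of a member's counts to the Anxa1 counts of that library, after a count of 1, scaled to library size, was added to each. It is not per length, so only its difference between kidneys is read. The log2 ratio of Anxa2 to Anxa1 was 2.13, 2.40, 2.05 and 2.95 in controls 1, 2, 3 and 5. In cisplatin 1, 3, 4 and 6 it was 3.18, 3.79, 3.54 and 2.97. The groups did not overlap, but control 5 and cisplatin 6 were close to each other. The mean log2 ratio was 2.38 ± 0.41 in the controls and 3.37 ± 0.36 after cisplatin (SD, n = 4), a difference of 0.99, and it was 0.30 within the second set. Anxa8 had a mean log2 ratio of -3.91 ± 0.72 in the controls and -4.07 ± 0.54 after cisplatin. Its groups overlapped, and its difference of -0.15 had the opposite sign within the second set, at 0.77. The difference was also above 0 without control 1 (0.06) or without control 2 (0.04). With 5 counts added before the log it was -0.62, so its direction is not settled.

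The other 5 members all had a lower ratio to Anxa1 in every cisplatin kidney than in any control. The difference in mean log2 ratio was -1.52 for Anxa4, -1.69 for Anxa5, -1.999 for Anxa6, -2.24 for Anxa11 and -6.52 for Anxa13. The mean log2 ratio of Anxa5 was 3.77 ± 0.12 in the controls and 2.08 ± 0.51 after cisplatin (SD, n = 4). That of Anxa11 was 2.61 ± 0.43 and 0.36 ± 0.35. The difference of Anxa6 was -1.31 in the first set and -2.87 in the second. Anxa13 had a mean log2 ratio of -0.55 ± 0.46 in the controls and -7.07 ± 1.11 after cisplatin, with a difference of -5.89 in the first set and -7.54 in the second.

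**Figure D4:**
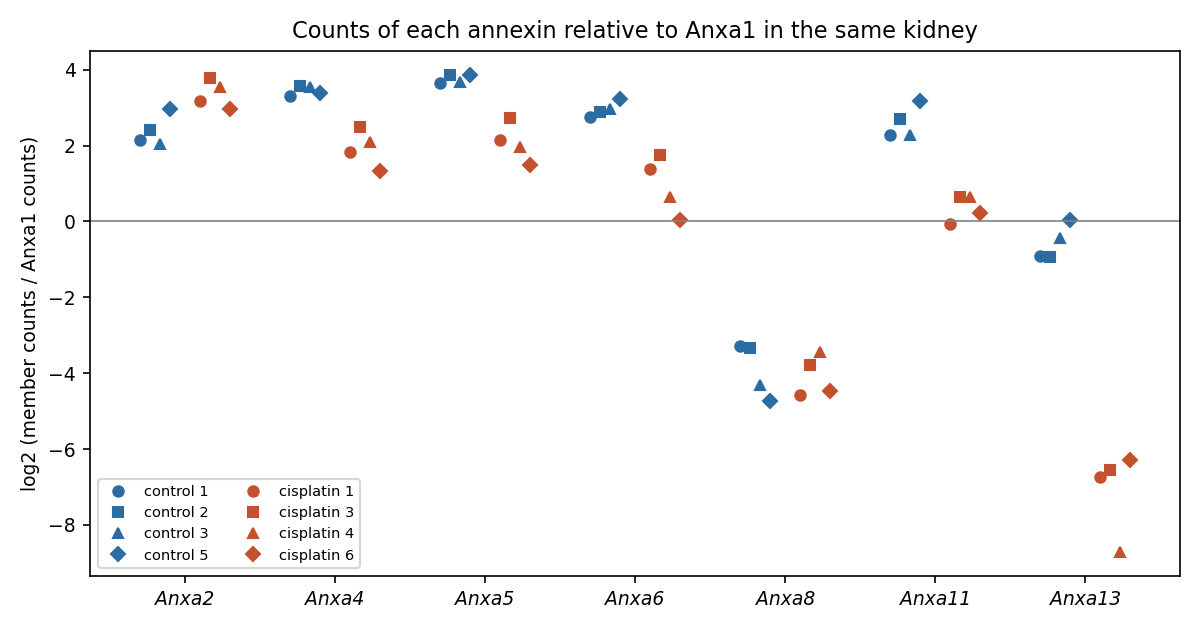
Log2 ratio of each annexin's counts to the Anxa1 counts of the same kidney, for 4 control (blue) and 4 cisplatin (orange) libraries, with 1 symbol per library and a line at 0, where the counts are equal. The ratio of Anxa2 is higher after cisplatin, that of Anxa8 overlaps between the groups, and those of the other 5 members are lower in all 4 cisplatin kidneys.

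Across the 8 libraries, the pattern of log2 CPM most like that of Anxa1 among the members tested was that of Anxa2 (Pearson r = 0.98). Anxa4 had r = 0.94, Anxa8 0.92 and Anxa5 0.88, whereas Anxa6 and Anxa11 both had 0.59. The farthest from Anxa1 by this measure was Anxa13, at r = -0.88. These values are descriptions over 8 points that fall into the treatment groups, and they reflect mostly the difference between the groups. After the group means were taken away, r with Anxa1 was 0.63 for Anxa13, opposite in sign to its value over all libraries, and lay between -0.26 (Anxa4) and 0.06 (Anxa5) for the other 6 members tested. Outside the family, the 5 genes most like Anxa1 were Calm2, Scarb1, Gm26810, Adamts4 and Myrip, with r of 0.99 each. Calm2, a gene of the calcium sensor calmodulin, had 228.6 ± 12.6 CPM in the controls and 539.1 ± 39.8 CPM after cisplatin (SD, n = 4). Scarb1, the scavenger receptor for high-density lipoprotein, had 24.7 ± 0.91 and 62.6 ± 5.87 CPM. Adamts4, a protease of matrix proteoglycans, had 39.8 ± 15.6 CPM after cisplatin, with a log2 fold change of 4.31. Myrip, which links Rab27 vesicles to myosin, had 2.17 ± 0.28 and 7.99 ± 1.93 CPM, and the unnamed transcript Gm26810 had 0.06 ± 0.04 and 1.66 ± 0.43 CPM. The control mean of Gm26810 lay below the level of 3 counts, and it passed the expression filter only through the cisplatin group. These 5 genes were picked for this likeness, so nothing further is read from it.

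The proteins that annexins work with were followed through 8 lists with 114 entries, of which 48 had rows that could be used and 43 were tested. By the quasi-likelihood test of edgeR (p adjusted after Benjamini and Hochberg over all genes), 21 were up-regulated and 3 down-regulated. The median log2 fold change was 0.996, against 0.08 over all genes. Counts called must be read beside the 19.2% and 15.7% called among all genes. The lists too were chosen with earlier results of these data known, so their calls are given as a description. Without cisplatin 1, without cisplatin 3 and without both, the number down-regulated was 6, 5 and 7.

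The S100 partners and scaffold genes that could be tested were up-regulated. S100 proteins are small calcium sensors that dock on the N-terminal regions of annexins. Of 11 listed, 7 were tested and all 7 were up-regulated, with a median log2 fold change of 3.02. S100a8, S100a9 and Ahnak2 passed the expression filter only through the cisplatin group, where they were high, and 4 genes of the list were up-regulated with a filter of 10 counts in every library. S100a11, the partner of Anxa1, had 102.8, 123.0, 101.2 and 131.6 CPM in controls 1, 2, 3 and 5 and 717.4, 756.6, 1169 and 1084 CPM in cisplatin 1, 3, 4 and 6. The groups were far apart, and cisplatin 4 and 6 were the highest. Its log2 fold change was 3.02 (SE 0.22), beside 2.66 for Anxa1. S100a6, a partner of Anxa2 and Anxa11, had 4.07, 5.82, 2.81 and 12.3 CPM in the controls and 379.2, 422.8, 462.3 and 521.5 CPM after cisplatin, a log2 fold change of 6.15 (SE 0.46). As for Anxa2, control 5 was the highest control. Ahnak, the giant scaffold that holds Anxa2 and S100a10 at the membrane, had 131.0, 164.9, 148.3 and 109.8 CPM in the controls and 838.3, 885.4, 416.6 and 498.0 CPM after cisplatin, a log2 fold change of 2.25 (SE 0.28). Here cisplatin 1 and 3 were the highest. Ahnak2, a related scaffold, went from 0.57 to 9.94 CPM (log2 fold change 4.12). S100a8, also a neutrophil marker, had 0.25 ± 0.25 and 2.57 ± 2.13 CPM. S100a10 is among the rows not analysed here.

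The known receptors of Anxa1, Fpr1 and Fpr2, were not analysed here. The 5 other formyl peptide receptor genes with usable rows (Fpr3, Fpr-rs3, Fpr-rs4, Fpr-rs6 and Fpr-rs7) had 0 counts in all 8 libraries, where 3 counts were 0.14 to 0.27 CPM.

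Genes of plasma membrane repair, the process in which several annexins take part, were tested for 8 of 18 listed. All 8 had every cisplatin library above every control, as did 23.7% of all genes, and 4 were up-regulated: Trim72, Capn2, Capns1 and Dysf. Capn2, the large subunit of m-calpain, which cleaves annexins and dysferlin at wounds, went from 115.4 ± 6.27 to 293.6 ± 19.9 CPM (SD, n = 4), and its log2 fold change was 1.35 (SE 0.13). Capns1, its small subunit, had a log2 fold change of 1.16 (SE 0.16) and Dysf, the dysferlin gene, 1.03 (SE 0.24). Trim72, an E3 ligase that gathers vesicles at wounds, had 2, 1, 2 and 41 counts in controls 1, 2, 3 and 5 and 92, 65, 164 and 175 counts in cisplatin 1, 3, 4 and 6. Its log2 fold change was 3.18 (SE 0.99), and control 5 was far above the other controls. It passed the expression filter only through the cisplatin group. Chmp4b, a subunit of the ESCRT-III complex that pinches off damaged membrane, stood just under the threshold at 0.996. The number called in this list ran from 1 to 8 over the alternatives.

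The plasminogen system, which Anxa2 with S100a10 assembles at the cell surface, changed in both directions. Of 5 genes tested, 3 were up-regulated and 1 down-regulated. Plaur, the urokinase receptor, went from 7.72 ± 0.92 to 174.3 ± 71.5 CPM (SD, n = 4), and its log2 fold change was 4.49 (SE 0.31). Plat, tissue plasminogen activator, went from 100.4 ± 15.6 to 812.8 ± 293.5 CPM, a log2 fold change of 3.02 (SE 0.29). Serpine2, an inhibitor of these proteases, had a log2 fold change of 2.69 (SE 0.25). Serpinf2, which encodes alpha-2-antiplasmin, fell from 717.6 ± 133.2 to 23.2 ± 21.7 CPM, a log2 fold change of -4.96 (SE 0.77). Plau, urokinase itself, had 930.3 ± 210.1 CPM in the controls and 817.6 ± 110.3 CPM after cisplatin, with overlapping groups. These 3 up-regulated and 1 down-regulated counts were the same under every alternative tried.

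Genes that expose, hide or recognise phosphatidylserine, the lipid that Anxa5 binds, also changed both ways: 2 of 7 tested were up-regulated and 2 down-regulated, with a median log2 fold change of -0.87. Havcr1, a phosphatidylserine receptor that is also the injury marker Kim-1, went from 2.75 ± 1.99 to 851.8 ± 192.1 CPM (SD, n = 4; log2 fold change 8.27, SE 0.52). Plscr1, a scramblase, had a log2 fold change of 1.69 (SE 0.15). Atp11a, a flippase that returns phosphatidylserine to the inner leaflet, fell from 3177 ± 235.0 to 330.5 ± 111.1 CPM, a log2 fold change of -3.26 (SE 0.26). Gas6, which bridges phosphatidylserine to TAM receptors, had a log2 fold change of -1.02 (SE 0.23), close to the threshold. The number down-regulated ran from 1 to 4 over the alternatives.

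Anxa1 is known to restrain phospholipase A2. Of 26 phospholipase A2 and eicosanoid enzyme genes listed, only 7 could be tested, Pla2g4a not among them, and these were mostly not called. Of 7 tested, 1 was up-regulated: Pla2g2e, a secreted phospholipase, had 0 counts in all controls and 3.52 ± 2.68 CPM after cisplatin (SD, n = 4), at least 13.3-fold higher than the level of 3 counts per control library. It too passed the filter only through the cisplatin group. Lta4h, which makes leukotriene B4, had 68.4 ± 7.34 CPM in the controls and 47.8 ± 3.66 CPM after cisplatin, with a log2 fold change of -0.52 that was not called. Glucocorticoids are known to induce Anxa1, and genes that respond to them were looked at beside it. Of 7 tested, 2 were up-regulated, Fkbp5 (log2 fold change 1.80, SE 0.22) and Cdkn1c (1.05, SE 0.21). The other 5 were not called. Tsc22d3, which encodes GILZ, had a log2 fold change of 0.57 (SE 0.25) and Dusp1 -0.42 (SE 0.43), and both missed the adjusted p threshold. Klf9 had -0.91 (SE 0.26), Errfi1 -0.61 (SE 0.18) and the receptor gene Nr3c1, also in the list, -0.87 (SE 0.19). These were lower past the adjusted p threshold but short of the fold threshold. The median of the list was -0.42. Copines, another family of calcium-dependent phospholipid-binding proteins, had 2 members tested and both were up-regulated, Cpne2 (log2 fold change 2.07, SE 0.37) and Cpne5 (3.65, SE 0.47). Cpne5 passed the filter only through the cisplatin group.

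**Figure D5:**
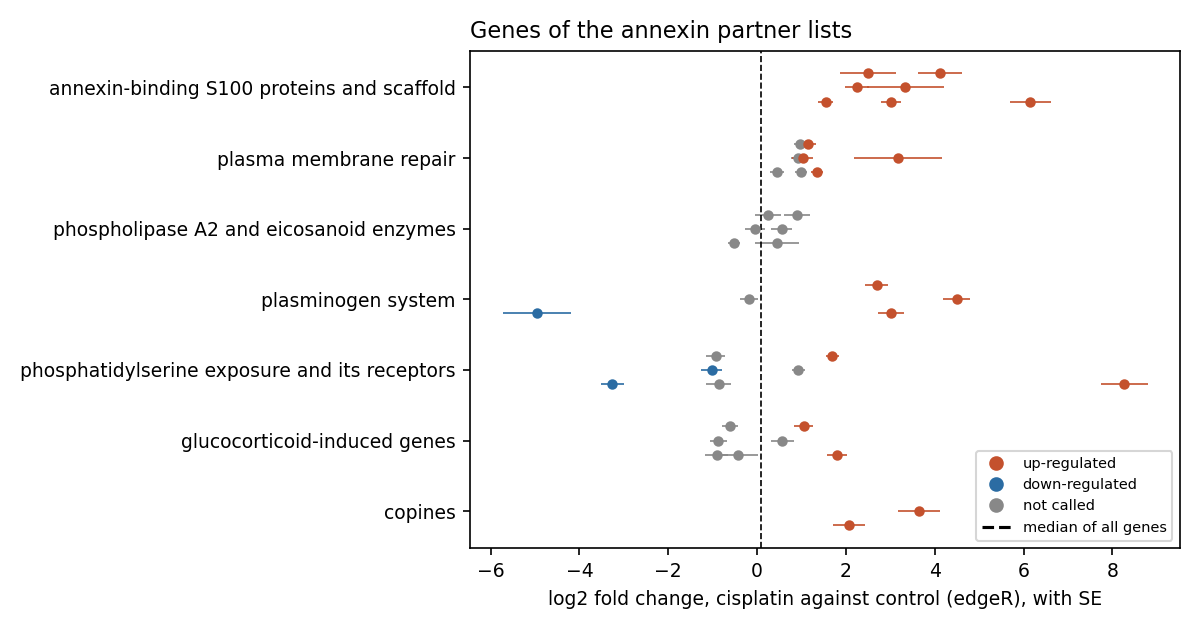
Log2 fold change with SE, cisplatin against control, of the tested genes in the annexin partner lists; orange points were up-regulated, blue points down-regulated and grey points not called, and the dashed line is the median of all genes (0.08). All 7 genes of the S100 list lie to the right of it, while the plasminogen and phosphatidylserine lists have called genes on both sides; Pla2g2e, with controls at 0, is not drawn.

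Markers of kidney cell types changed in the same libraries, and their part in the annexin values was not tested. Of 11 proximal tubule markers all were tested and all 11 were down-regulated, with a median log2 fold change of -4.40. Their summed level was 32320, 29356, 31903 and 38478 CPM in controls 1, 2, 3 and 5 and 1228, 1160, 2679 and 2740 CPM in cisplatin 1, 3, 4 and 6. Slc34a1 had the highest mean over the 8 libraries, with 13184 CPM in the controls and 322.9 CPM after cisplatin, where Slc27a2 had 605.5 CPM, and no marker was at 0. Slc7a13 would not have passed the filter on the cisplatin libraries alone. Of 12 injured tubule markers 10 were tested and 9 were up-regulated, with a median log2 fold change of 4.40. Krt20 and Sox9 among them passed the filter only through the cisplatin group. The list summed to 1589 to 1835 CPM in the controls and to 35929, 39000, 19611 and 17521 CPM after cisplatin. Spp1 had the highest mean over the 8 libraries, with 976.7 and 16652 CPM, and no marker was at 0. Cisplatin 1 and 3 were above cisplatin 4 and 6 in this sum, which Spp1 dominates. Clu, Lcn2, Cd44 and Vcam1 had the same order as Spp1. Krt8, Krt18 and Krt20 were higher in cisplatin 4 and 6, and Havcr1 and Sox9 overlapped between these pairs.

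Other cell types are also known to hold annexins. Neutrophils, rich in Anxa1, had 4 of 6 tested markers up-regulated, all 4 of which (S100a8, S100a9, Cxcr2 and Retnlg) passed the expression filter only through the cisplatin group, where they were high. All markers of the list with usable rows had summed levels of 4.87 to 7.94 CPM in the controls and 15.6, 22.1, 22.8 and 29.3 CPM after cisplatin. The marker with the highest mean over the 8 libraries was Csf3r, at 3.17 and 5.97 CPM (log2 fold change 0.91, not called), and Mpo was at 0 counts in all libraries. Macrophage and monocyte markers had 2 of 8 up-regulated and 1 down-regulated. Msr1, 1 of these 2, would not have passed the filter on the controls alone. The list summed to 73.7 to 139.3 CPM in the controls and 129.1 to 189.4 CPM after cisplatin, and the groups overlapped. Cd14 had the highest mean over the 8 libraries, with 7.76 and 81.2 CPM, while in the controls Lyz2 was higher, at 40.2 CPM. Fibroblast and pericyte markers had 3 of 4 up-regulated, with a median log2 fold change of 2.57, and summed to 71.6 to 256.6 CPM in the controls and to 1578, 1379, 342.6 and 1024 CPM after cisplatin, led by Col1a2. The 5 endothelial markers had a median log2 fold change of -0.55 and the 2 podocyte markers of 0.08, with sums of 650.1 and 504.9 CPM for endothelium and 509.6 and 519.9 CPM for podocytes in controls and after cisplatin.

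Along the rest of the nephron, 1 of 2 markers of the thick ascending limb, 2 of 3 of the distal convoluted tubule and 1 of 3 of intercalated cells were down-regulated. Among principal cell markers 1 of 3, Aqp2, was up-regulated. Urothelial markers, from a tissue with much Anxa8, had 2 of 3 up-regulated. They summed to 6.07 to 8.89 CPM in the controls and to 17.5, 39.5, 37.6 and 7.30 CPM in cisplatin 1, 3, 4 and 6. Of T cell markers 1 of 4 was down-regulated and of B cell markers 1 of 2 up-regulated, with sums of at most 19.1 CPM in any library. Red cell markers summed to 26.5, 4.95, 196.9 and 54.5 CPM in controls 1, 2, 3 and 5, with control 3 far above the others. After cisplatin they summed to 0.82 to 12.5 CPM, and the groups overlapped. Of 4 tested, 3 were down-regulated. Neither these 3, nor Cd8a and Slc4a1, the T cell and intercalated cell markers called, would have passed the filter on the cisplatin libraries alone, and Cd79a, the B cell marker called, would not have passed on the controls alone. Of 4 adipocyte markers only Cidec was tested, at 1.73 and 36.1 CPM, and it passed the filter only through the cisplatin group. The list summed to 18.9 CPM in control 1, which stood apart, to 0.38 to 1.20 CPM in the other controls and to 12.3 to 66.1 CPM after cisplatin.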

How the data were processed

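The authors aligned reads to GRCm38 with HISAT2, after fastp, and deposited raw counts per gene for 8 libraries. The counting tool, annotation release and strand setting are not given in the sources used here, and the labels and the study's methods name different library kits. Of 53715 rows, 35880 with 8 values were used. The other 17835 held 10 values, 2 of them from unnamed columns that were used in no step, and were left out, so totals cover part of each library.

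The analysis of these counts used edgeR 4.0.16 under R 4.3.3: the default expression filter, TMM, and the quasi-likelihood test of cisplatin against control with Benjamini-Hochberg adjustment over 9141 genes. The study's methods name DESeq2, which was run as an alternative (1.42.0). The SE is the size of the log2 fold change over the square root of F. CPM values are TMM-normalized, and per kb by the deposited gene length. The procedure was tested on simulated data. Coding sequences of GENCODE M21 were aligned with mafft 7.526. Promoters came from RefSeq (GRCm38.p6).

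Members and gene lists were chosen with earlier results of these data known. Named are all members, up to 4 called genes per partner list with the largest change and a mean of at least 1 CPM, direct partners, and the 5 genes with the highest r with Anxa1. S100a8, Chmp4b, Lta4h, Plau, Tsc22d3, Dusp1, Klf9, Errfi1, Nr3c1 and the markers named singly were picked after their values were seen. Nothing says how the kidneys were paired or handled in batches, so p-values measure the spread between these samples. Floors of 3 counts cover counting error only.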

Additional observations from a re-analysis of the deposited data

Results flagged for a closer look

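Among the 8 annexins tested, 16 groups of 4 libraries were examined for a value far from the others, and 1 was found. For Anxa1 in the controls, library 1 had 12.0 CPM and the other 3 had 10.4 to 10.6 CPM, so that its gap to the nearest was 0.844 of the whole range, above Dixon's critical value for 4 samples. Chance marks about 1 in 20 such groups. The range itself is small beside the cisplatin values of 51.9 CPM or more.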

How the results depend on the processing

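No annexin's fitted log2 fold change changed direction over 21 alternatives, or over 20 for Anxa8 and Anxa13, while the ratio within the second set, which allows no fit, was -0.18 for Anxa6 and -0.05 for Anxa11. The number called up-regulated ran from 3 to 6 (main 4) and the number down-regulated was 1 except with a filter of 10 counts in every library, which removed Anxa8 and Anxa13 and left 0. Leaving out each library in turn gave 4 to 5 up-regulated and 1 down-regulated. Anxa5 passed the fold threshold under upper quartile scaling (1.02), total library size (1.54), library set as a covariate (1.01), and without cisplatin 4 (1.08) or 6 (1.05). Anxa6 passed the adjusted p threshold but not the fold threshold under upper quartile scaling (0.79) and with no filter on low counts (0.74). It was called with total library size (1.33). Under that scaling Anxa11 was at 0.90, past the adjusted p threshold but under the fold threshold. Over all genes, 1754 up-regulated and 1434 down-regulated became 3174 and 803 with total library size, 885 and 803 with the test against a log2 fold change of 1, and 1101 up-regulated with the filter of 10 counts. The share of calls that were higher was 55.0% with TMM and 79.8% with total library size. Among partner genes, 3 down-regulated became 2 to 6 when single libraries were left out, and 7 without the 2 libraries with almost no Y-linked counts, an alternative added after the data were seen, as were the library sets. By list, those up-regulated ran from 4 to 7 for S100 partners, 0 to 3 for phospholipases, 1 to 3 for glucocorticoid-induced genes and 1 to 2 for copines, and glucocorticoid-induced genes down-regulated from 0 to 2. Replicate numbers 1 and 3 occur in both groups, but the labels state no pairing. With the replicate number as a block, 1710 genes were up-regulated and 1404 down-regulated and 6 annexins were up-regulated, with Anxa5 at 1.30 and Anxa6 at 1.23. Same-numbered libraries deviated together with r = 0.22 and 0.23, but so did others of the first set (control 2 with cisplatin 1, r = 0.33), so the numbers are not shown to pair them. The block leaves 2 libraries per group, all of the first set. With the exon union of GENCODE M21 as length, Anxa1 had 3.74 in place of 4.18 CPM per kb in the controls. Depth limits Anxa8, Anxa10 and Anxa13.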
